A study of Homo sapiens with 12 samples.

Results

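The genes described here are 44 genes of mitosis and of the G2/M transition, chosen by their names and known roles, with earlier results of these data known. They comprise the mitotic cyclins and kinases, the spindle checkpoint, the kinetochore, the chromosomal passenger complex, kinesins, spindle assembly factors, and genes of cytokinesis and anaphase. A gene was measured where an array probe was annotated with one of its RefSeq transcripts, which held for 43 of the 44, read by 51 probes, among 25471 genes tested in all. The expression of PLK1 was not measured here, and PLK1 enters only the promoter counts below. Every one of the 43 genes passed the filter on dim probes.

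The samples were PC-3 cells, an established androgen-independent cell line from a prostate adenocarcinoma, in 6 groups of 2. All cells carried either an empty pcDNA3.1 vector (control, WT and MM cells) or the same vector with human PIM1 (PIM1, PIM1 + WT and PIM1 + MM cells), together with a Td-Tomato marker plasmid and G418 selection. WT and PIM1 + WT cells then received wild-type NFATC1 by transient transfection, and MM and PIM1 + MM cells a multi mutant form whose PIM1 target serines and threonines were replaced by alanine. For control and PIM1 cells the labels name no transient transfection. The stable cells were antibiotic-selected pools, how many pools there were per vector is not given in the sources used here, and nothing in the labels says that the 2 replicates of a group came from separate cultures or transfections, so p-values measure only the spread between these samples. The RNA was taken on the day after the transfection according to the methods, while another passage of the study gives a later time.

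In dividing cells, cyclin A2 and the B-type cyclins activate the kinase CDK1, which drives entry into mitosis, and the aurora kinases then build the spindle and correct its attachments. The kinetochore links chromosomes to microtubules, the spindle checkpoint holds the cell in metaphase until every chromosome is attached, and the anaphase-promoting complex with CDC20 and UBE2C ends mitosis by destroying cyclin B and securin. Most of these genes are transcribed in G2 and M phase and are nearly silent in resting cells, so that their mRNA is widely used as a measure of proliferation in tumours. PIM1 is a serine/threonine kinase that promotes survival and cell cycle progression, with CDC25 phosphatases and NUMA1 among its known substrates, and NFATC1 is a transcription factor.

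Each array carried a Cy3 and a Cy5 sample. Cy3 was used for the control, WT and PIM1 + WT samples, whereas the PIM1, MM and PIM1 + MM samples had Cy5. PIM1 cells were therefore compared with control cells across dyes, where dye and group cannot be told apart, whereas PIM1 + WT could be compared with WT cells within Cy3 and PIM1 + MM with MM cells within Cy5. The mean of these last comparisons, called here the difference with stable PIM1 within a dye, was taken as the main one, since a fixed dye difference of a gene drops out of it. An array difference does not drop out. WT samples shared arrays with MM samples, and PIM1 + WT with PIM1 + MM samples, so stable PIM1 and array cannot be told apart in it. All levels are log2 intensities after quantile normalization, differences are on the log2 scale, and a gene passed where its limma p-value, adjusted over all genes tested by the Benjamini-Hochberg method, was below 0.05. A gene that passed and differed by at least 1 was called.

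The median raw intensity was 86 to 139 in Cy3 and 176 to 318 in Cy5 channels. The median log2 raw signal of the spike-in controls was 10.99 and 11.10 in WT and 9.72 and 9.56 in PIM1 + WT samples. In MM samples it was 13.66 and 12.45, and in PIM1 + MM samples 12.69 and 11.48. The part of this difference in the results below was not tested. Replicate 1 of every group was on the first slide and replicate 2 on the second. Over all genes, the deviations of control 1 and PIM1 1, which shared an array, from their group means had a correlation of 0.834. It was 0.345 and 0.497 for the samples that shared the other arrays of that slide. With 2 samples per group the second slide gives the same values, so they do not say which array departed. The median correlation with the other samples was 0.9887 for control 1 and 0.9906 for control 2. For PIM1 1 and PIM1 2 it was 0.9851 and 0.9899. In PIM1 + MM 2, the first 33 of 532 rows of the array had a median log2 raw signal of 7.34, compared with 7.61 in the other rows. PIM1 itself, read by 1 probe whose place relative to the transfected sequence is not known, had levels of 9.85 to 10.36 over the 12 samples and did not differ between PIM1 and control cells by the test, with a difference of 0.25 (standard error 0.0995, adjusted p = 0.107). The difference of PIM1 with stable PIM1 within a dye was -0.04 (standard error 0.0703, adjusted p = 0.748). The study reported overexpression of PIM1 and/or NFATC1 in its cell samples by real-time PCR, which was not examined here. The groups are named here by their labels. At 1 of the 2 NFATC1 probes, levels were 6.19 to 6.87 without NFATC1 vector, 7.72 to 8.01 with WT and 11.22 to 11.98 with MM NFATC1. NFATC1 form and NFATC1 level therefore cannot be told apart in any comparison of WT with MM NFATC1. The other probe did not rise with either vector. It read 8.25 to 8.40 in the samples without stable PIM1 and 7.17 to 7.46 in those with it. The epithelial markers KRT8, KRT18 and EPCAM were well above background in all 12 channels and KLK3 in none. Of 6 markers of leukocytes, endothelium and stroma, PECAM1 (0.86) and CDH5 (0.26) passed with higher levels with stable PIM1 within a dye, and DCN and LUM were not well above background in any channel. The summed intensity of the 6 markers was 552 to 599 in the samples without stable PIM1 and 678 to 767 in those with it, and its part in the results below was not tested.

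Most of the mitotic genes were lower in the cells with stable PIM1. Within a dye, 32 of the 43 members fell, against 17.4% of all genes tested, and 3 rose, against 16.7% of all genes. The median difference of the members was -0.40, compared with 0.00 for all genes. Among the members that passed, the largest decreases were in AURKA, CCNB2 and UBE2C, and the increases in NUMA1, CDC25B and CDC20, with no member called. RNA was taken from whole cultures, so fewer cells in G2 and mitosis cannot be told apart from less of these mRNAs per cell.

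The decrease held on each slide and in each dye, although the Cy3 and Cy5 samples compared came from the same arrays. On the first slide 36 members were below 0, with a median of -0.38, and on the second slide 37, with a median of -0.35. For 32 of the 43 members, or 74.4%, both samples with stable PIM1 were below both samples without it in Cy3 and again in Cy5, while 20.2% of all genes did so. With each channel centred on its median in place of quantile normalization, the count that passed was 11, all of them lower, where 3.05% of all genes were lower, with a median member difference of -0.61 and a median over all genes of 0.10.

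**Figure D1:**
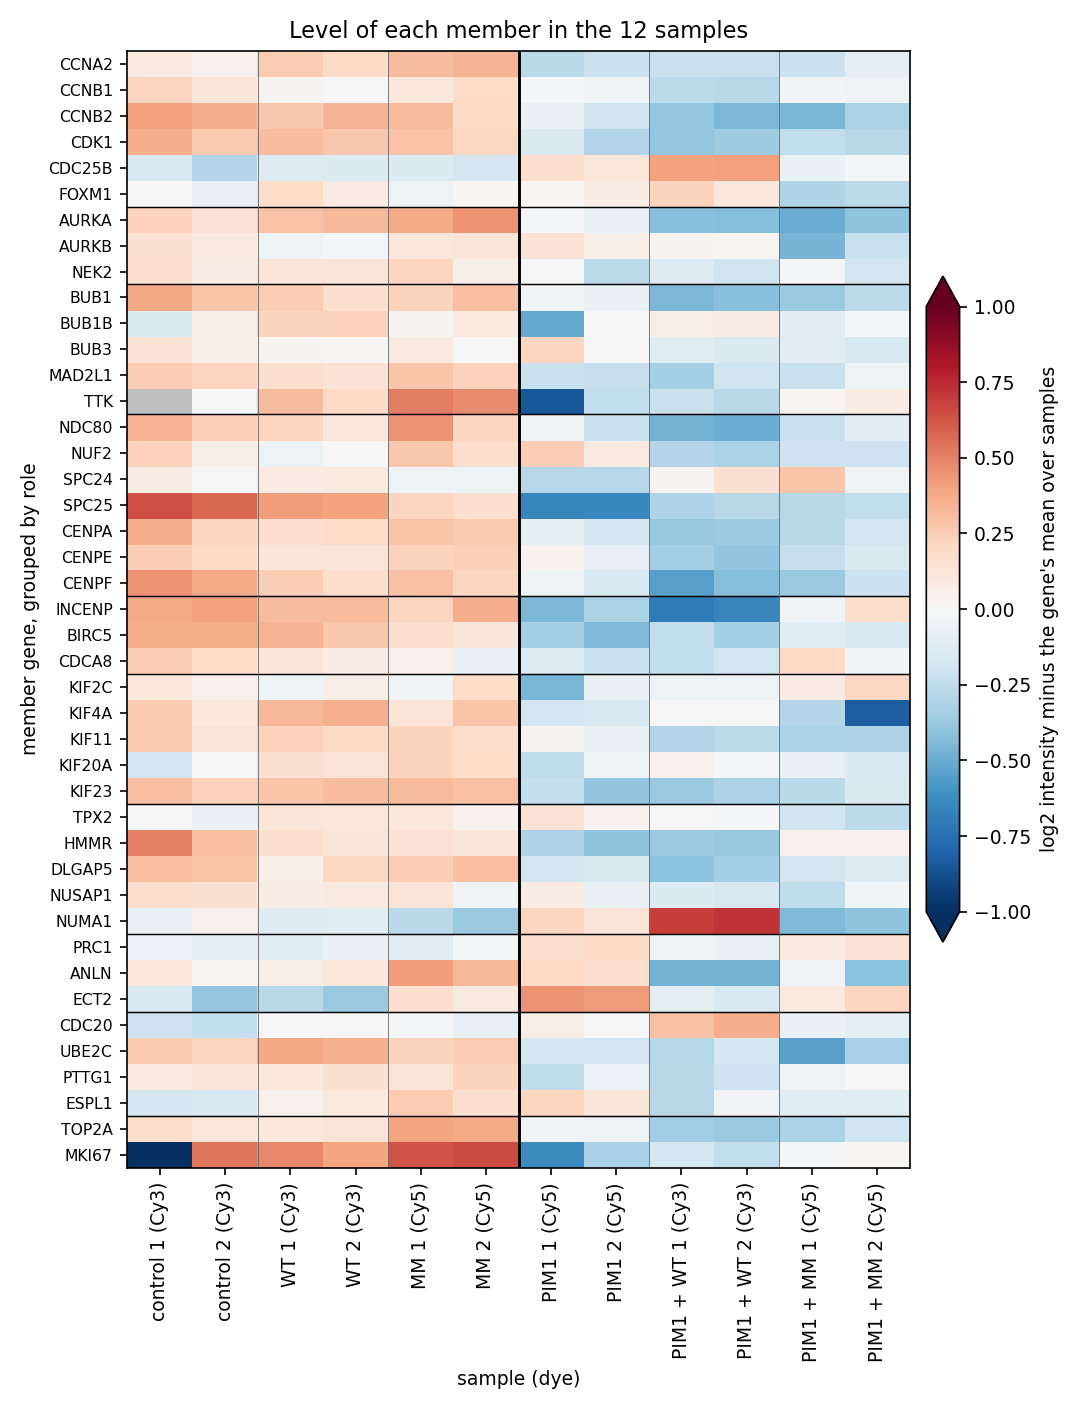
Level of the 43 members (rows, grouped by role, with lines between roles) in the 12 samples (columns, with the dye in brackets), as log2 intensity minus the mean of the gene over the samples, and grey for a missing value. The 6 samples without stable PIM1, to the left of the thick line, have member medians of 0.12 to 0.22, and the 6 with it have medians of -0.26 to -0.05.

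Among the cyclins and CDK1, 4 of 6 genes fell within a dye. CDK1, the kinase that drives mitotic entry, had levels of 12.98 and 12.87 in control, 12.92 and 12.89 in WT, 12.90 and 12.83 in MM, 12.48 and 12.33 in PIM1, 12.23 and 12.26 in PIM1 + WT and 12.37 and 12.34 in PIM1 + MM cells. The 6 samples with stable PIM1 were all below the 6 without it, and the difference within a dye was -0.59 (standard error 0.0489, adjusted p = 2.38e-05). CCNB2, a B-type cyclin that activates CDK1, had levels of 12.17 and 12.13 in control, 12.04 and 12.11 in WT, 12.08 and 11.96 in MM, 11.71 and 11.57 in PIM1, 11.39 and 11.32 in PIM1 + WT and 11.31 and 11.46 in PIM1 + MM cells. Its difference was -0.68 (standard error 0.0545, adjusted p = 1.91e-05), and it was also lower in every sample with stable PIM1 than in every sample without. CCNA2, the cyclin of S and G2 phase, was 9.82 and 9.78 in control, 9.99 and 9.92 in WT, 10.05 and 10.07 in MM, 9.46 and 9.51 in PIM1, 9.51 and 9.51 in PIM1 + WT and 9.52 and 9.64 in PIM1 + MM cells, with a difference of -0.46 (standard error 0.043, adjusted p = 4.55e-05) and no overlap between the samples with and without stable PIM1.

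CCNB1, the other B-type cyclin, showed a smaller difference of -0.23 (standard error 0.0402, adjusted p = 0.00173). Its levels were 11.16 and 11.06 in control, 10.97 and 10.95 in WT, 11.05 and 11.12 in MM, 10.93 and 10.92 in PIM1, 10.69 and 10.66 in PIM1 + WT and 10.92 and 10.90 in PIM1 + MM cells, and the samples with stable PIM1 were below those without by a narrow gap. The 2 probes of CCNB1 disagreed in size, at -0.39 (adjusted p = 0.000152) for the brighter probe and -0.07 (adjusted p = 0.263) for the dimmer one, so that the value for the gene lies between them.

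FOXM1, the transcription factor that activates many G2/M genes, did not pass within a dye, at -0.12 (standard error 0.047, adjusted p = 0.0929). Its levels were 11.02 and 10.94 in control, 11.21 and 11.11 in WT, 10.98 and 11.03 in MM, 11.05 and 11.10 in PIM1, 11.25 and 11.13 in PIM1 + WT and 10.73 and 10.77 in PIM1 + MM cells, so the WT and PIM1 + WT samples overlapped and the MM samples were above the PIM1 + MM samples. CDC25B, the phosphatase that removes the inhibitory phosphates of CDK1, went the other way. Its levels were 12.47 and 12.33 in control, 12.49 and 12.48 in WT, 12.48 and 12.46 in MM, 12.79 and 12.74 in PIM1, 13.03 and 13.04 in PIM1 + WT and 12.56 and 12.61 in PIM1 + MM cells, all 6 samples with stable PIM1 being above all 6 without, and the difference was 0.33 (standard error 0.0435, adjusted p = 0.000366).

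Promoter sequences were read for all listed members in the table used, whatever their difference, since genes of the G2/M program are known to be controlled through a cell cycle homology region (CHR, searched as TTTGAA) and CCAAT boxes (searched as CCAAT), each on both strands. Of the 44 members, 37 were in the RefSeq table of promoters (GRCh38.p14, windows of 300 bases from 250 before to 50 after a transcription start). A gene was counted where any of its windows held the letters. TTTGAA was found for 25 of the 37 (67.6%), compared with 18.2% of the 27305 genes of the table, and CCAAT for 31 (83.8%), compared with 39.7%. Both were found for 21 members (56.8%) and 8.37% of all genes. These counts describe letters in a window and not bound sites.

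The 250 bases before the start are shown for 3 members that fell, CCNB2, CDK1 and CCNB1, and for NUMA1, the member with the largest increase. CCNB2 stands in for AURKA, which had the largest decrease and was not in the table, and this choice was made after its values were seen. All are written 5′ to 3′ on the strand of the gene, with the letters of TTTGAA and CCAAT, or of their reverse complements, in capitals. The windows are chr15:59104896-59105145 (plus strand) for CCNB2, chr10:60778228-60778477 (plus strand) for CDK1, the later of its 2 starts in the table, chr5:69166900-69167149 (plus strand) for CCNB1 and chr11:72080543-72080792 (minus strand) for NUMA1.
CCNB2: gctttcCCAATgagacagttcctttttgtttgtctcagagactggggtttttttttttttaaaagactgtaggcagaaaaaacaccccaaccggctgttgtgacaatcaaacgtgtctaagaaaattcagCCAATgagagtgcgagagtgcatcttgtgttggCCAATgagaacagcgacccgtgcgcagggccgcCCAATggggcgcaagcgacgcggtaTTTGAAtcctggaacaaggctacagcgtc
CDK1: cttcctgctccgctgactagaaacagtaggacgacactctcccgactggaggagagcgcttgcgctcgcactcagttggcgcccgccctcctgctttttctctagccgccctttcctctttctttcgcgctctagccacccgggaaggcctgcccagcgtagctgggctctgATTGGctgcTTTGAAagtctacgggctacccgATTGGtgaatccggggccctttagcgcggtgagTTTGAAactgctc
CCNB1: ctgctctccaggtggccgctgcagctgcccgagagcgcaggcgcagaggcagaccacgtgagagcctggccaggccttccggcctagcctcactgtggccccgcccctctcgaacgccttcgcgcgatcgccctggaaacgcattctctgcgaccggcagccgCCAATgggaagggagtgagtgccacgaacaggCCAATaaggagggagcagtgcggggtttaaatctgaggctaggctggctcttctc
NUMA1: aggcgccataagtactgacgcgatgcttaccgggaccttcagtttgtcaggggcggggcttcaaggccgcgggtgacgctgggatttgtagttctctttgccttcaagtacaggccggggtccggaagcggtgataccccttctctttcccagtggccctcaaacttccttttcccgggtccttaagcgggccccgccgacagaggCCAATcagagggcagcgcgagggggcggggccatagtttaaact
In the CCNB2 window TTTGAA begins 29 bases before the start and the nearest of 4 CCAAT boxes 54 bases before it. The CDK1 window has TTTGAA at 69 and 13 bases before the start, and the reverse complement of CCAAT at 78 and 46. CCAAT begins 87 and 55 bases before the CCNB1 start and 44 bases before that of NUMA1, and TTTGAA is not in either window as printed. Matches of the 2 motifs share no base in these windows.

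All 3 mitotic kinases measured fell within a dye. AURKA, which matures centrosomes and builds the spindle poles, had levels of 12.85 and 12.76 in control, 12.90 and 12.94 in WT, 12.99 and 13.07 in MM, 12.60 and 12.55 in PIM1, 12.20 and 12.19 in PIM1 + WT and 12.12 and 12.21 in PIM1 + MM cells. The 6 samples with stable PIM1 were all below the 6 without, and the difference of -0.80 (standard error 0.0433, adjusted p = 2.11e-06) was the largest decrease among the members. AURKB, the kinase of the chromosomal passenger complex, had levels of 8.50 and 8.44 in control, 8.30 and 8.33 in WT, 8.46 and 8.48 in MM, 8.49 and 8.41 in PIM1, 8.37 and 8.37 in PIM1 + WT and 7.88 and 8.12 in PIM1 + MM cells. Its difference of -0.21 (standard error 0.0556, adjusted p = 0.0169) came from the Cy5 samples, with -0.47 (adjusted p = 0.00326) in PIM1 + MM against MM cells and 0.05 (adjusted p = 0.718) in PIM1 + WT against WT cells. AURKB did not pass without WT 2, MM 2 or PIM1 + WT 2 (adjusted p of 0.0501 to 0.0595) or with the array as a random block (adjusted p = 0.0526). NEK2, which splits centrosomes, was at -0.26 (standard error 0.0709, adjusted p = 0.0182).

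Of the 5 spindle checkpoint genes, 4 fell. BUB1, a checkpoint kinase, had the largest difference of them at -0.61 (standard error 0.0482, adjusted p = 1.81e-05). MAD2L1, which holds CDC20 inactive, was at -0.40 (standard error 0.051, adjusted p = 0.000275) and TTK, the kinase that starts the checkpoint signal, which has no value in control 1, at -0.48 (standard error 0.114, adjusted p = 0.0123). The decrease of BUB3, which brings BUB1 to kinetochores, was small at -0.17 (standard error 0.0553, adjusted p = 0.0448), and its 2 probes gave -0.25 (adjusted p = 0.0017) and -0.09 (adjusted p = 0.544). BUB1B, a component of the mitotic checkpoint complex, was at -0.14 (standard error 0.0996, adjusted p = 0.318) and did not pass.

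The kinetochore genes formed the largest role, and 6 of 7 fell, with a median of -0.52 within a dye. In the NDC80 complex, which grips microtubules, SPC25 was at -0.58 (standard error 0.0381, adjusted p = 6.3e-06), NDC80 at -0.58 (standard error 0.067, adjusted p = 0.000174) and NUF2 at -0.36 (standard error 0.0545, adjusted p = 0.000887). The remaining subunit, SPC24, was at 0.08 (standard error 0.0687, adjusted p = 0.417) and did not pass. CENPA, the histone H3 variant of centromeres, had a difference of -0.52 (standard error 0.0468, adjusted p = 3.65e-05). CENPF, a kinetochore protein that peaks in G2, was at -0.62 (standard error 0.0544, adjusted p = 3.16e-05), with -0.66 and -0.59 at its 2 probes, and the kinetochore motor CENPE at -0.46 (standard error 0.044, adjusted p = 5.61e-05).

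In the chromosomal passenger complex, which corrects faulty attachments, BIRC5 and INCENP fell and CDCA8 did not pass. BIRC5 (survivin), which is also known as an inhibitor of apoptosis, had levels of 14.99 and 14.99 in control, 14.95 and 14.89 in WT, 14.78 and 14.73 in MM, 14.28 and 14.18 in PIM1, 14.37 and 14.28 in PIM1 + WT and 14.50 and 14.46 in PIM1 + MM cells. All samples with stable PIM1 were below all those without, with a difference of -0.44 (standard error 0.0443, adjusted p = 7.51e-05). INCENP, the scaffold of the complex, was at -0.61 (standard error 0.0596, adjusted p = 6.24e-05), and CDCA8 (borealin) at -0.11 (standard error 0.0582, adjusted p = 0.183).

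Of the 5 kinesins, 4 fell. KIF11, which pushes the spindle poles apart, was at -0.50 (standard error 0.0445, adjusted p = 3.35e-05), and KIF23, a motor of the central spindle, at -0.57 (standard error 0.0502, adjusted p = 3.2e-05) with -0.61 and -0.54 at its 2 probes. KIF20A, which acts in cytokinesis, was at -0.23 (standard error 0.0597, adjusted p = 0.0168). KIF4A, a chromatin-bound motor, was at -0.55 (standard error 0.101, adjusted p = 0.00233), but the only spot of 1 of its 2 probes lay in the first 33 rows of the array, where PIM1 + MM 2 was dim. That probe read 8.95 in PIM1 + MM 2 and 9.95 in PIM1 + MM 1, and the other probe gave -0.29 (adjusted p = 0.00111). KIF2C, a microtubule depolymerase, was at 0.01 (standard error 0.0853, adjusted p = 0.978), with a 95% interval of -0.19 to 0.20.

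Spindle assembly genes divided. DLGAP5, which stabilises kinetochore fibres, was at -0.47 (standard error 0.0465, adjusted p = 6.68e-05), HMMR, a spindle-associated hyaluronan receptor, at -0.30 (standard error 0.0517, adjusted p = 0.00174), TPX2, the activator of AURKA, at -0.21 (standard error 0.0435, adjusted p = 0.00443), and NUSAP1, a microtubule bundling protein, at -0.21 (standard error 0.0637, adjusted p = 0.032). HMMR passed with WT NFATC1 in Cy3 (-0.52, adjusted p = 0.000766) and not with MM NFATC1 in Cy5 (-0.08, adjusted p = 0.501). TPX2 passed in Cy5 (-0.30, adjusted p = 0.0086) and not in Cy3 (-0.12, adjusted p = 0.191). NUSAP1 passed in neither dye alone (adjusted p = 0.0926 in Cy3 and 0.205 in Cy5). NUMA1, which anchors dynein at the spindle poles, rose by 0.37 (standard error 0.0456, adjusted p = 0.000254), the largest increase among the members. Its levels were 8.33 and 8.44 in control, 8.26 and 8.27 in WT, 8.13 and 8.02 in MM, 8.61 and 8.53 in PIM1, 9.09 and 9.12 in PIM1 + WT and 7.95 and 7.99 in PIM1 + MM cells. The increase lay in Cy3 alone, the PIM1 + WT samples being above every other sample and the PIM1 + MM samples slightly below the MM samples.

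The cytokinesis genes did not move together. ANLN, a scaffold of the contractile ring, was at -0.57 (standard error 0.0755, adjusted p = 0.000353), whereas PRC1, which bundles the midzone microtubules, was at 0.11 (standard error 0.0407, adjusted p = 0.0636) and ECT2, the exchange factor that activates RhoA at the cleavage site, at 0.11 (standard error 0.0594, adjusted p = 0.185), neither passing. Of the anaphase genes, UBE2C, the E2 enzyme of the anaphase-promoting complex, had levels of 13.89 and 13.84 in control, 14.02 and 13.99 in WT, 13.85 and 13.88 in MM, 13.46 and 13.43 in PIM1, 13.34 and 13.45 in PIM1 + WT and 13.09 and 13.30 in PIM1 + MM cells. It was lower in every sample with stable PIM1 than in every sample without it, and the difference was -0.64 (standard error 0.0538, adjusted p = 2.51e-05). PTTG1 (securin) was at -0.29 (standard error 0.0522, adjusted p = 0.0023) and ESPL1 (separase) at -0.28 (standard error 0.0585, adjusted p = 0.00512).

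CDC20, the activator of the complex, differed from them. Its levels were 10.92 and 10.88 in control, 11.12 and 11.13 in WT, 11.12 and 11.04 in MM, 11.19 and 11.13 in PIM1, 11.42 and 11.49 in PIM1 + WT and 11.06 and 11.03 in PIM1 + MM cells, with higher values in PIM1 + WT than in WT cells and overlapping values in PIM1 + MM and MM cells. The difference within a dye was 0.15 (standard error 0.0406, adjusted p = 0.0213), and it was -0.06 with median centring. CDC20 did not pass without WT 1, WT 2, MM 2, PIM1 + WT 2 or PIM1 + MM 1 (adjusted p of 0.0528 to 0.0837), with the processed signal (adjusted p = 0.126) or with the array as a random block (adjusted p = 0.0676).

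TOP2A, which untangles chromosomes and peaks in G2, had levels of 10.39 and 10.33 in control, 10.33 and 10.35 in WT, 10.61 and 10.60 in MM, 10.19 and 10.17 in PIM1, 9.87 and 9.85 in PIM1 + WT and 9.91 and 10.02 in PIM1 + MM cells. All samples with stable PIM1 were below all those without, and the difference was -0.56 (standard error 0.0414, adjusted p = 1.22e-05). MKI67, the antigen behind the Ki-67 proliferation index, had a difference of similar size, -0.65, but did not pass (standard error 0.313, adjusted p = 0.151).

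Its levels were 7.44 and 9.29 in control, 9.23 and 9.15 in WT, 9.38 and 9.41 in MM, 8.13 and 8.43 in PIM1, 8.58 and 8.51 in PIM1 + WT and 8.73 and 8.77 in PIM1 + MM cells, with control 1 far below control 2. The 3 probes of MKI67 differed in these samples. Probe A_33_P3374205 read 6.54 in control 1 and 6.08 in PIM1 1, which shared an array, and 8.43 to 9.41 in the other 10 samples. Probe A_24_P346855 gave a difference of -0.49 (adjusted p = 0.00142) and probe A_33_P3374210, which has no value in control 1, one of -0.37 (adjusted p = 0.000425). Control and PIM1 cells take no part in the difference itself, only in the estimate of the spread, and without the array of control 1 and PIM1 1 MKI67 passed at -0.65 (adjusted p = 3.38e-05). It also passed without control 1 or control 2 alone (adjusted p = 0.000195 for each). Over all members, 37 passed without that array.

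**Figure D2:**
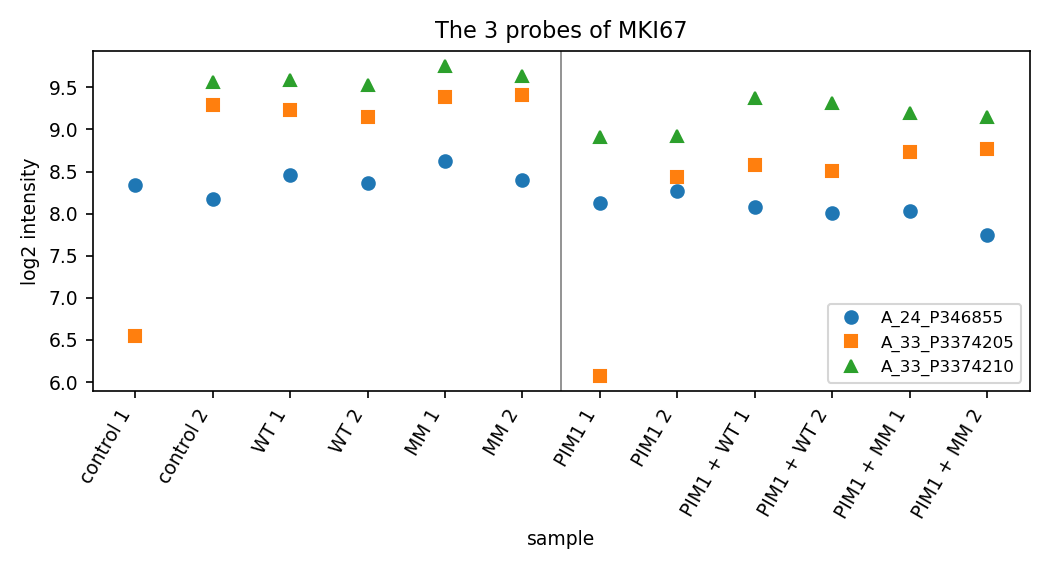
Log2 intensity (y axis) of the 3 probes of MKI67 in the 12 samples (x axis), with the samples with stable PIM1 to the right of the line. Probe A_33_P3374205 drops to 6.54 and 6.08 in the samples of 1 array, control 1 and PIM1 1, while probe A_24_P346855 stays between 7.75 and 8.63 in all 12.

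The same direction was seen between PIM1 and control cells, which share no sample with the groups above but were compared across dyes. Here 23 of 43 members fell, against 12.5% of all genes, and 5 rose, against 12.7%, with a median of -0.25. SPC25 was the 1 member called, in a comparison in which 0.663% of all genes were called lower. Its levels were 11.17 and 11.10 in control, 10.94 and 10.93 in WT, 10.73 and 10.68 in MM, 9.87 and 9.87 in PIM1, 10.21 and 10.24 in PIM1 + WT and 10.25 and 10.27 in PIM1 + MM cells. The PIM1 samples were below every other sample, and the difference was -1.27 (standard error 0.0539, adjusted p = 1.71e-06). INCENP (-0.77, standard error 0.0843, adjusted p = 2e-04) and BIRC5 (-0.76, standard error 0.0626, adjusted p = 4.83e-05) followed. HMMR was close to them at -0.76 (standard error 0.0731, adjusted p = 0.000106).

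The members that rose in PIM1 cells were ECT2, CDC25B, ESPL1, CDC20 and PRC1. ECT2 had levels of 10.45 and 10.22 in control, 10.32 and 10.23 in WT, 10.77 and 10.69 in MM, 11.05 and 11.03 in PIM1, 10.50 and 10.45 in PIM1 + WT and 10.70 and 10.82 in PIM1 + MM cells, the PIM1 samples being the highest of all, and a difference of 0.71 (standard error 0.084, adjusted p = 0.000325). CDC25B was at 0.37 (standard error 0.0615, adjusted p = 0.00215) and ESPL1 at 0.33 (standard error 0.0827, adjusted p = 0.016). ESPL1 had levels of 11 and 11.01 in control, 11.22 and 11.27 in WT, 11.43 and 11.33 in MM, 11.39 and 11.29 in PIM1, 10.89 and 11.14 in PIM1 + WT and 11.05 and 11.05 in PIM1 + MM cells, so that the control samples were low, and it had fallen within a dye. It did not pass without control 1, control 2 or PIM1 1 (adjusted p of 0.0632 to 0.076), without the array of control 1 and PIM1 1 (adjusted p = 0.159) or with the processed signal (adjusted p = 0.138). In a fit to these groups only, neither ESPL1 (adjusted p = 0.0615) nor CDC25B (adjusted p = 0.061) passed. With median centring no member rose and 27 fell, where 13.6% of all genes fell, and CDC25B and ESPL1 changed sign. The number that passed was 18 without the array of control 1 and PIM1 1, with 16 lower, where 10.1% of all genes were, and 2 higher.

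The 3 comparisons of stable PIM1 share no sample, although the WT and MM samples shared arrays and so did the PIM1 + WT and PIM1 + MM samples. For 23 members, both samples with stable PIM1 lay below their counterparts in Cy3, in Cy5 and also between PIM1 and control cells, against 11.5% of all genes. A decrease passed the test in all 3 of these comparisons for 17 members, against 4.39% of all genes. These were AURKA, CDK1, CCNA2, CCNB2, BUB1, MAD2L1, NDC80, SPC25, CENPA, CENPE, CENPF, BIRC5, KIF11, KIF23, DLGAP5, UBE2C and TOP2A. The 3 members above 0 in all 3 comparisons, or 6.98%, against 25.3% of all genes, were CDC25B, ECT2 and PRC1. ECT2 was only at 0.03 with MM NFATC1 (adjusted p = 0.877) and PRC1 at 0.04 with WT NFATC1 (adjusted p = 0.711), neither passing.

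**Figure D3:**
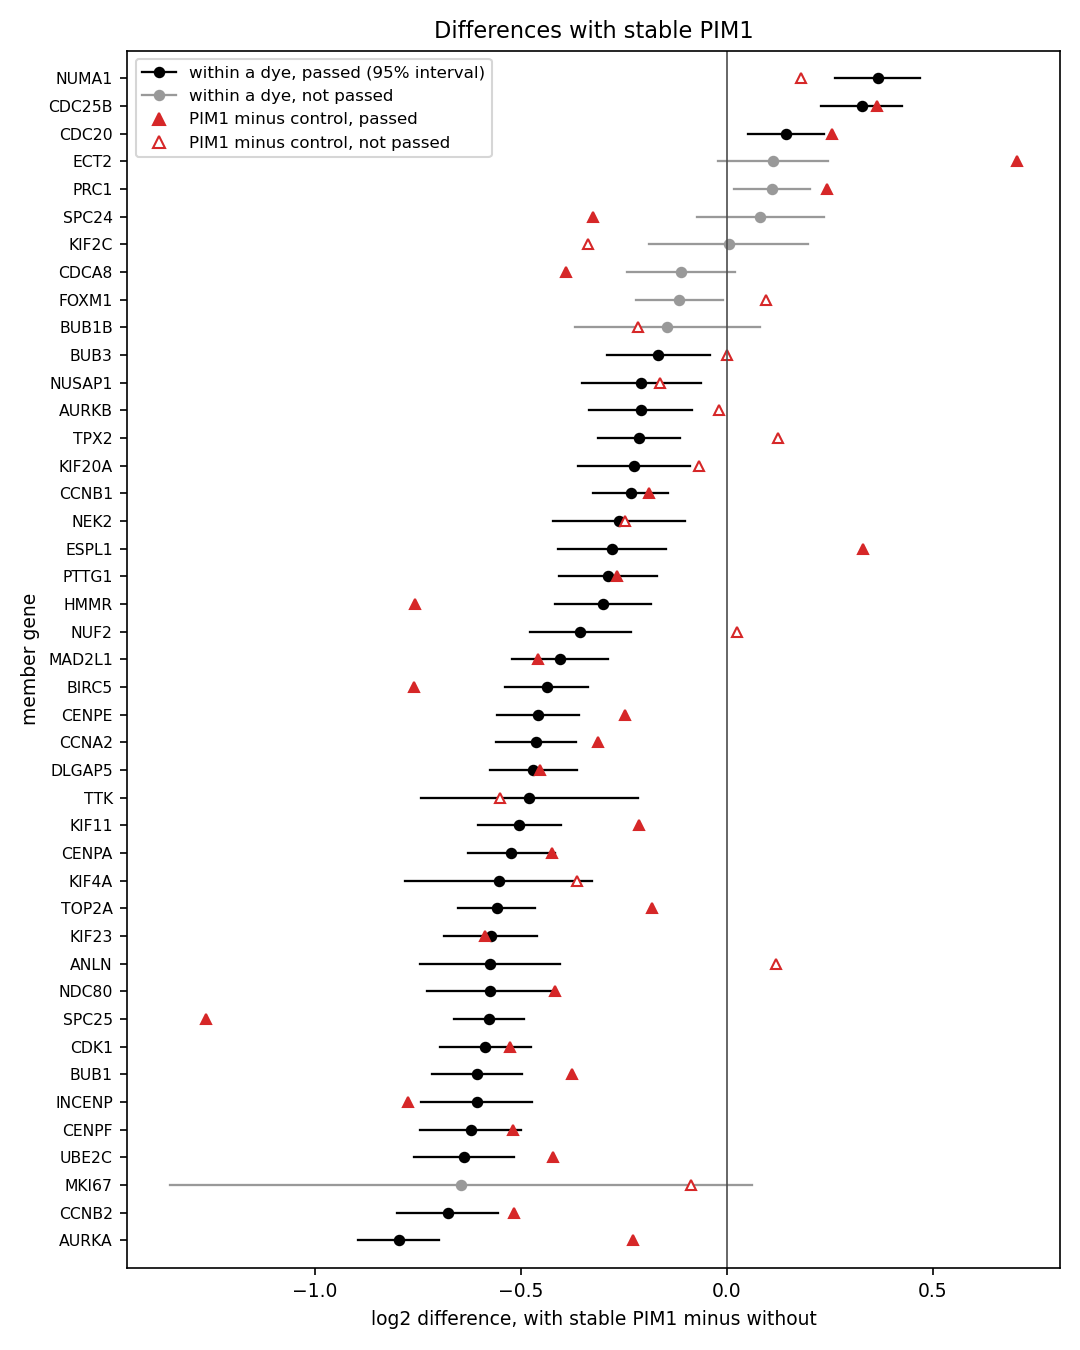
Log2 difference with stable PIM1 (x axis) of the 43 members (y axis), as the mean of both comparisons within a dye (circles with 95% intervals) and between PIM1 and control cells (triangles), filled or black where the gene passed. Intervals lie below 0 from BUB3 down to AURKA except for MKI67, and SPC25 has the lowest triangle at -1.27.

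Whether the response to stable PIM1 depended on the NFATC1 form was asked next, by the difference between PIM1 + WT and WT cells on one side and PIM1 + MM and MM cells on the other. Form here includes the NFATC1 level, which was higher with MM at 1 of the 2 probes. With WT NFATC1, 25 members fell (14.1% of all genes did) and 3 rose (13.4%), CDC25B, NUMA1 and CDC20, with a median of -0.42. With MM NFATC1, 25 fell (9.4% of all genes) and none rose (10% of all genes), with a median of -0.39. Of the 43 members, 2 had a higher difference with WT NFATC1 by the interaction, NUMA1 and CDC25B, against 1.71% of all genes, and 1 had a lower one, INCENP, against 0.503%. The other 40 did not pass, and 10 in all had an unadjusted p below 0.05, as did 4064 of the 25471 genes tested. After loess within arrays 4 passed with a higher and 1 with a lower difference.

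**Figure D4:**
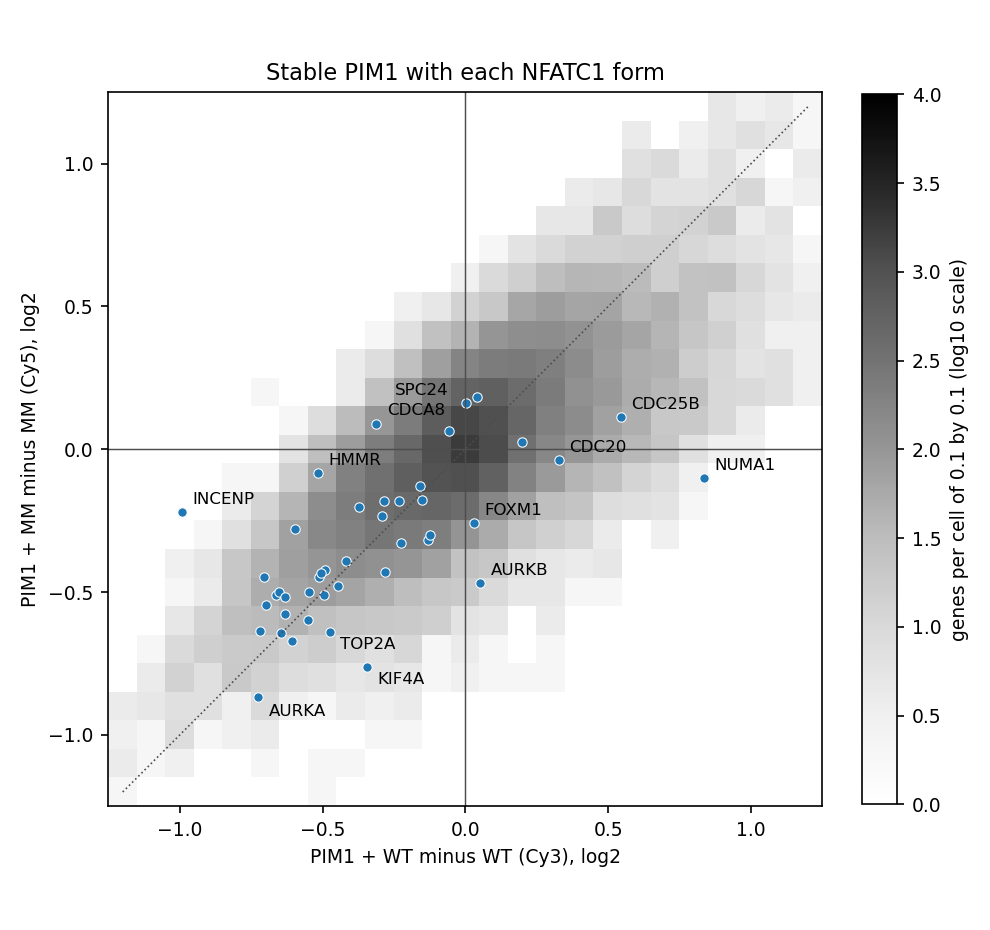
Log2 difference with stable PIM1 with WT NFATC1 (x axis, within Cy3) against that with MM NFATC1 (y axis, within Cy5), for the 43 members (points) and all genes (grey cells shaded by the number of genes), with a dotted line of equal differences. NUMA1 at 0.84 on the x axis and INCENP at -0.99 lie farthest from the line, near 0 on the y axis.

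NUMA1 rose with stable PIM1 with WT NFATC1, by 0.84 (standard error 0.0645, adjusted p = 2.84e-05), and was at -0.10 (standard error 0.0645, adjusted p = 0.324) with MM NFATC1. The interaction was 0.94 (standard error 0.0912, adjusted p = 0.00484). INCENP fell with stable PIM1 with WT NFATC1, at -0.99 (standard error 0.0843, adjusted p = 4.75e-05), and its difference with MM NFATC1 was -0.22 (standard error 0.0843, adjusted p = 0.104). Its levels were 9.99 and 10.01 in control, 9.92 and 9.93 in WT, 9.83 and 9.98 in MM, 9.17 and 9.30 in PIM1, 8.91 and 8.96 in PIM1 + WT and 9.58 and 9.79 in PIM1 + MM cells. The PIM1 + WT samples were the lowest, the PIM1 samples next, and the PIM1 + MM samples were closer to the samples without stable PIM1, with an interaction of -0.77 (standard error 0.119, adjusted p = 0.017). CDC25B had an interaction of 0.43 (standard error 0.0869, adjusted p = 0.0423), from a rise of 0.54 with WT NFATC1 (adjusted p = 0.000221) and a difference of 0.11 with MM NFATC1 (adjusted p = 0.249). None of the 3 passed with median centring, CDC25B did not pass when any of the 8 samples compared was left out (adjusted p of 0.0651 to 0.177), and INCENP did not without WT 1, WT 2, MM 1, PIM1 + WT 1 or PIM1 + WT 2 (adjusted p of 0.063 to 0.0928). With the outlier flags kept INCENP was at -0.73 (adjusted p = 0.179), and after normexp background correction CDC25B was at 0.43 (adjusted p = 0.0616).

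**Figure D5:**
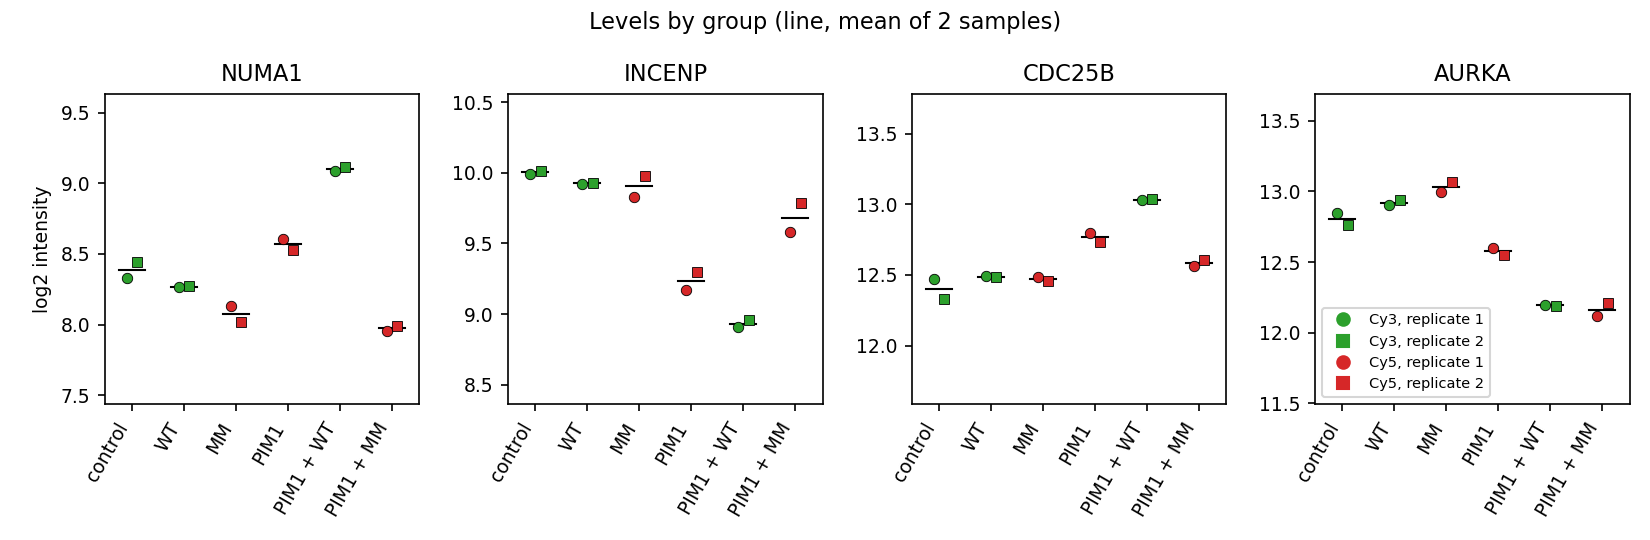
Log2 intensity (y axes, each spanning the same range) of NUMA1, INCENP, CDC25B and AURKA in the 6 groups (x axes), with circles for replicate 1, squares for replicate 2, green for Cy3, red for Cy5 and a line at the group mean. NUMA1 is highest and INCENP lowest in PIM1 + WT cells, while AURKA is low in both groups with stable PIM1 and NFATC1.

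Between PIM1 + WT and PIM1 + MM cells, which shared arrays and differed in dye, 7 members were higher in PIM1 + WT cells, against 8.55% of all genes, and 4 lower, against 7.57%. NUMA1 was called at 1.13 (standard error 0.0645, adjusted p = 3.53e-05), in a comparison in which 0.326% of all genes were called higher. The study had listed NUMA1 for its difference in these same samples, so that neither its call nor its interaction, which contains this difference, is independent evidence. KIF4A (0.56, standard error 0.142, adjusted p = 0.0288) and CDC25B (0.45, standard error 0.0615, adjusted p = 0.00149) were next, and FOXM1, CDC20, AURKB and TPX2 were also higher, by 0.44, 0.41, 0.37 and 0.22. With the first 33 rows of PIM1 + MM 2 left out, KIF4A did not pass (adjusted p = 0.0758), nor did it without WT 1, WT 2, PIM1 + WT 1, PIM1 + WT 2 or PIM1 + MM 2 (adjusted p of 0.0501 to 0.134). At its 2 probes, the levels were 10.33 and 10.37 in PIM1 + WT against 9.95 and 8.95 in PIM1 + MM cells, and 7.92 and 7.86 against 7.71 and 7.65.

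INCENP was the member with the largest decrease in PIM1 + WT against PIM1 + MM cells, at -0.75 (standard error 0.0843, adjusted p = 0.00052). HMMR was at -0.42 (standard error 0.0731, adjusted p = 0.00484), CDCA8 at -0.30 (standard error 0.0823, adjusted p = 0.038) and CCNB1 at -0.23 (standard error 0.0568, adjusted p = 0.0239). CDCA8 did not pass without either control, WT or PIM1 + WT sample or without PIM1 + MM 1, and was at -0.41 to -0.19 with a sample left out. Nor did CDCA8 pass with loess within arrays (-0.19, adjusted p = 0.234) or in a fit to these groups only (adjusted p = 0.116). Without the first 33 rows of PIM1 + MM 2 it was at -0.28 (adjusted p = 0.0612). HMMR had levels of 11.68 and 11.47 in control, 11.34 and 11.29 in WT, 11.31 and 11.29 in MM, 10.87 and 10.77 in PIM1, 10.81 and 10.79 in PIM1 + WT and 11.22 and 11.22 in PIM1 + MM cells, so PIM1 and PIM1 + WT samples were below all others and PIM1 + MM samples lay close to the WT and MM samples. The split of higher against lower members changed with the scaling, from 7 and 4 to 8 and 2 with loess within arrays, 6 and 6 with the processed signal, and 1 and 0 with median centring, where NUMA1 alone passed and CDCA8 changed sign. The number that passed was 7 without WT 1 or WT 2 and 6 without PIM1 + WT 1 or PIM1 + WT 2.

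Without stable PIM1, no mitotic gene passed the test between the NFATC1 forms. Between WT and MM cells, 0 of 43 members passed by limma, against 0.793% of all genes. An unadjusted p below 0.05 was found for 9 members and for 3037 of the 25471 genes tested. The member median was -0.03, and it was 0.40 with median centring. The member closest to the threshold was ECT2, at -0.45 (standard error 0.084, adjusted p = 0.0517), and up to 4 members passed under the other settings tried at the same threshold. Between WT and control cells, both in Cy3, 0 members passed by limma, against 0.204% of all genes. An unadjusted p below 0.05 was found for 11 members and for 2737 of the 25471 genes tested, and the member median was -0.03. These cells were on different arrays, and the labels name no transient transfection for control cells. Array, transfection and WT NFATC1 therefore cannot be told apart. The 95% intervals of the difference between WT and control cells were -0.02 to 0.25 for AURKA and -0.18 to 0.13 for CDK1.

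In cells with stable PIM1, 15 members differed between PIM1 + MM and PIM1 cells, both in Cy5. Of these 10 fell, against 7.17% of all genes, and 5 rose, against 5.2%. The samples of these groups were on different arrays, and the labels name no transient transfection for PIM1 cells. Array, transfection and MM NFATC1 therefore cannot be told apart. NUMA1 (-0.59, standard error 0.0645, adjusted p = 0.00147), AURKB (-0.45, standard error 0.0786, adjusted p = 0.00851) and AURKA (-0.41, standard error 0.0612, adjusted p = 0.00443) had the largest decreases. The decrease also passed for ANLN, NUF2, FOXM1, TPX2, KIF11, BUB1 and TOP2A, at -0.40 to -0.22. SPC24 had levels of 7.48 and 7.39 in control, 7.48 and 7.5 in WT, 7.36 and 7.34 in MM, 7.11 and 7.11 in PIM1, 7.43 and 7.55 in PIM1 + WT and 7.67 and 7.35 in PIM1 + MM cells, the PIM1 samples being the lowest of all. INCENP (0.45, standard error 0.0843, adjusted p = 0.0109), SPC24 (0.40, standard error 0.0971, adjusted p = 0.0296) and HMMR (0.40, standard error 0.0731, adjusted p = 0.00981) had the largest increases, with SPC25 and BIRC5 at 0.39 and 0.25. The PIM1 samples thus lay between the other groups for AURKA and at the low end for SPC25 and BIRC5. No member passed in a fit to these 4 samples alone or with median centring. The number was 7 without PIM1 1 and 9 without PIM1 + MM 2. INCENP did not pass without PIM1 1 or PIM1 + MM 2, and SPC24 not without either PIM1 or WT sample or without PIM1 + MM 1.

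A wider list of 102 other G2/M and mitosis genes, with condensins, cohesins and further centromere, kinesin and anaphase-promoting complex genes, was described in the same way. Within a dye 68 of the 102 fell, where 17.4% of all genes did, and 6 rose, where 16.7% did, with a median of -0.28. FBXO5, an inhibitor of the anaphase-promoting complex, and FAM83D, a spindle protein, had the largest decreases at -0.69 (standard error 0.0627, adjusted p = 4.05e-05) and -0.68 (standard error 0.0621, adjusted p = 4.06e-05). MAD1L1, the checkpoint partner of MAD2L1, and PMF1, a kinetochore subunit, had the largest increases at 0.65 (standard error 0.0584, adjusted p = 3.73e-05) and 0.29 (standard error 0.0395, adjusted p = 0.000434). Between PIM1 and control cells 47 of the 102 fell (12.5% of all genes) and 5 rose (12.7%), with a median of -0.22.

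Of 15 CDK inhibitors, G1 cyclins and their kinases, 3 fell and 4 rose within a dye, close to the 17.4% and 16.7% of all genes, with a median of -0.01. The E-type cyclins CCNE1 (-0.64, standard error 0.0711, adjusted p = 0.000132) and CCNE2 (-0.68, standard error 0.0637, adjusted p = 4.69e-05) fell together with the CDK inhibitor CDKN1C (-0.88, standard error 0.068, adjusted p = 1.53e-05). The CDK inhibitors CDKN2A (0.61, standard error 0.0508, adjusted p = 2.37e-05), CDKN2B (0.36, standard error 0.0479, adjusted p = 0.000365) and CDKN2C (0.31, standard error 0.0565, adjusted p = 0.00246) and the D-type cyclin CCND3 (0.54, standard error 0.0484, adjusted p = 3.9e-05) rose. CDKN1A, the p21 inhibitor, was at 0.06 (standard error 0.0968, adjusted p = 0.723). Of the reference genes, ACTB and GAPDH were higher by 0.29 and 0.33 and TBP was at -0.29, all 3 passing, so the differences hold on the scale of all genes and not against a constant gene.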

How the data were processed

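Microarray measurements of 12 PC-3 samples on 6 two-colour arrays on 2 slides were analysed. The authors scanned the arrays with Agilent Feature Extraction 11.0.1.1 and deposited the raw median intensity, local background, processed signal and flags of each spot on a linear scale, and a table of log2 values after quantile normalization, which was used as an alternative. Each sample was read in the channel of its own dye, as given in the labels. Spots flagged as outliers were left out, the log2 intensities of the 43118 spots were averaged for 34127 probes, and 31484 probes above the 90th percentile of 153 negative controls in at least 2 of 12 channels were kept. No background was subtracted. Values were quantile normalized and the median per symbol was taken, with symbols from the RefSeq transcripts of GRCh38.p14, which matched 26377 probes. Of the 1476 spot values of the members, 23 were flagged as outliers and 0 spots were saturated.

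One mean per group was fitted to the 12 samples with limma 3.58.1 (R 4.3.3), with two-sided p-values adjusted by the Benjamini-Hochberg method over 25471 genes. Each group had 2 samples, so the number of arrays limits the precision. The script was tested on simulated data. The members and gene lists were chosen with earlier results of these data known, and no set test was run. Named were CCNB1, CDK1, CCNA2, PLK1, AURKA, AURKB, TOP2A, MKI67, FOXM1, CDC20, BIRC5 and NUMA1, every called member and, in each comparison, the 3 members with the largest difference in each direction among those that passed with the same sign on both slides, and up to 2 of the other genes in each direction. Every other member has its difference given.

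As alternatives, the background was corrected with normexp (offset 50), quantile normalization was replaced by loess with Aquantile or by median centring, and the processed signal or the deposited log2 values replaced the raw signal. Probes had to pass the filter in all 12 channels, or no filter was set. Flagged spots were kept, a gene was read by its brightest probe, and the slide or array was added as a block. Fits were also made to only those groups that a comparison involves, without the first 33 rows of PIM1 + MM 2, without the array of control 1 and PIM1 1, and without each sample.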

Additional observations from a re-analysis of the deposited data

Results flagged for a closer look

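Of the members, 3 differed between the NFATC1 forms in their response to stable PIM1 by a test of the interaction itself (limma, adjusted over all genes). The difference was higher with WT NFATC1 for 2, against 1.71% of all genes, and lower for 1, against 0.503%. Form here includes the NFATC1 level, which was higher with MM at 1 of the 2 probes. None of the 3 passed with median centring. The interaction was 0.938 for NUMA1 (adjusted p = 0.00484), with 1.00 on the first slide and 0.87 on the second. NUMA1 was listed by the study for its PIM1 + WT against PIM1 + MM difference in these samples, which is part of the interaction, so this is no independent evidence. It was -0.774 for INCENP (adjusted p = 0.017), with -0.76 and -0.78 on the slides. It was 0.431 for CDC25B (adjusted p = 0.0423), with 0.46 and 0.40. Each is the PIM1 + WT minus PIM1 + MM difference minus the WT minus MM difference.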

How the results depend on the processing

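Within a dye, the number of members past the test was 35, between 31 and 37 under the other settings, and 11 with median centring, and 29 to 35 with a sample left out. For the 102 other genes it was 74, between 63 and 81, 11 with median centring, and 58 to 76 with a sample left out. The median member difference stayed below 0 throughout, from -0.61 with median centring to -0.36 with loess. Between PIM1 and control cells 28 members passed, with 15 in a fit to these groups only, 18 without the array of control 1 and PIM1 1, 26 to 33 otherwise, and 20 to 29 with a sample left out. Between PIM1 + WT and PIM1 + MM cells 11 passed, with 6 in the groups only, 1 with median centring, 18 and 20 with the array as a fixed or random block, 21 at an unadjusted p below 0.05, and 6 to 14 with a sample left out. The interaction passed for 3, with 0 after median centring, 5 after loess and with the first 33 rows left out, 6 and 9 with the array as a fixed or random block, 8 with the filter in all 12 channels, 10 unadjusted, and 1 to 5 with a sample left out. Between WT and MM cells 0 passed, with 1 after loess, with the deposited values, outliers kept, the brightest probe, the slide block, the fixed array block, the first 33 rows left out and the array of control 1 and PIM1 1 left out, 3 with the filter in all 12 channels, 4 with the random array block, 9 unadjusted, and 0 to 1 with a sample left out. Between WT and control cells 0 passed, with 11 unadjusted and 0 to 1 with a sample left out. Between PIM1 + MM and PIM1 cells 15 passed, with 0 in the groups only and with median centring, 27 unadjusted, and 7 to 15 with a sample left out.

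Median centring turned CDC20 within a dye to -0.059, CDC25B and ESPL1 between PIM1 and control cells to -0.368 and -0.344, and CDCA8 between PIM1 + WT and PIM1 + MM cells to 0.013, and it moved the median of all genes to 0.102 within a dye and 0.128 between PIM1 and control cells. The causes were not tested. With the slide, which carries the replicate number, as a block, the members past the test within a dye were 35. The array as a fixed block gives no value for comparisons between arrays. Of the 25471 genes tested, 4064 had an unadjusted limma p below 0.05 in the interaction and 7255 between PIM1 + WT and PIM1 + MM cells. The number was 3037 between WT and MM, 2737 between WT and control and 7046 between PIM1 + MM and PIM1 cells. A group reduced to 1 sample takes its spread from the others. The interaction passed for 1 member without WT 1, WT 2, MM 1, PIM1 + WT 1 or PIM1 + WT 2 and for 5 without PIM1 1 or PIM1 2, and the 1 member between WT and MM cells came without control 1 or control 2.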
